A study of Homo sapiens with 22 samples.

Results

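The genes described here are 55 assembly factors of the large ribosomal subunit, taken by gene symbol from a fixed list of names out of the 20411 genes in each expression table. The rule itself used no measured values, but the list was written with earlier results of these data known. All 55 were present in the tables of both cell lines. Their mRNA was read by RNA-seq in MOLM-13 cells, an acute myeloid leukemia line, and in NB4 cells, an acute promyelocytic leukemia line. Cells received FP54, a compound built to degrade the RNA demethylase FTO, at 2 μM for 48 h, or the solvent DMSO alone as the mock control. Each line gave 3 DMSO and 3 FP54 libraries, which makes 12 libraries in 4 groups, and the other 10 of the 22 samples of the study, m6A-seq and polysome-seq libraries, were not analysed here. No genotype was altered, each line stands for a single leukemia, and the labels do not say whether the 3 libraries of a group came from separate cultures. The p-values therefore measure the spread between these libraries, which may be technical.

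A large ribosomal subunit is built around the precursor of its ribosomal RNA, which RNA polymerase I transcribes in the nucleolus. Assembly factors bind this precursor in an ordered series, fold it, help cut out its spacers, place the ribosomal proteins and then leave, so that none of them is part of the finished ribosome. The earliest factors act in the nucleolus, GTPases and AAA ATPases drive the later rearrangements on the way to the nucleoplasm, and a last set serves export and the release of placeholder proteins in the cytoplasm. Growing leukemia cells make many ribosomes, and genes of this kind are textbook targets of the transcription factor MYC, whose preferred site is the E-box CACGTG. The design of the study was directed at FTO, the m6A mark it removes and ribosome biogenesis, and the question here was which steps of large subunit assembly changed in mRNA level under FP54.

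The promoter sequences of these genes held the E-box more often than promoters in general. RefSeq windows of 300 bases (GRCh38.p14), from 250 bases before to 50 bases after an annotated transcription start, were searched on both strands for the letters CACGTG, which read the same on either strand. A window was found for 46 of the 55 genes, and 17 of these (37%) contained the motif. The motif was present in 7.26% of all 35116 windows. Counted by gene, it was in 8.77% of all 27305 genes with a window and in 13% of those tested in either line. No window was found for BOP1, RRS1, MAK16, DDX18, URB2, RRP1B, RPF2, RRP12 and RSL1D1. The following 30-base stretches, each written 5′ to 3′ on the strand of its gene with the E-box in capitals, belong to the 8 genes that had a motif and were called lower in MOLM-13 under the rule given below. They are printed to show where in the window the motif lies. Closeness to a start was built in, because only these windows were searched.
DDX54: ctcagcggaggtCACGTGgtcaccgcacct
EBNA1BP2: gatattgttggcCACGTGggatcgaagacc
GNL3: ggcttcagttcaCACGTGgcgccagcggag
LYAR: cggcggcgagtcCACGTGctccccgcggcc
MRTO4: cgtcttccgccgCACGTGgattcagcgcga
NLE1: ctctttctcctcCACGTGgggacgcaggat
PES1: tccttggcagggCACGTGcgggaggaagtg
TMA16: cttctcaggcgcCACGTGggattcggcccg

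The DDX54 stretch lies at chr12:113185522-113185551 on the minus strand, with the motif starting at position -61 from the transcription start, in upstream DNA. That of LYAR lies at chr4:4290068-4290097 on the minus strand at -64, also upstream of its RefSeq start, and that of EBNA1BP2 at chr1:43172790-43172819 on the minus strand at -237. The other 5 motifs start within the first bases of the transcript. They are GNL3 at chr3:52686026-52686055 on the plus strand (position 7), TMA16 at chr4:163494684-163494713 on the plus strand (position 7), NLE1 at chr17:35142274-35142303 on the minus strand (position 13), PES1 at chr22:30591880-30591909 on the minus strand (position 14) and MRTO4 at chr1:19251807-19251836 on the plus strand (position 15). All positions refer to a RefSeq start. The outermost GENCODE start lies further upstream for LYAR, EBNA1BP2, GNL3, TMA16 and PES1, so there the whole stretch lies inside the annotated gene. Among the assembly factors with a window, 8 of the 14 called lower in MOLM-13 held the motif (57.1%, EBNA1BP2 also at position 43), against 8 of the 30 that were tested and not called (26.7%). This MOLM-13 split depends on DMSO replicate 2, a library that stood apart. Leaving it out added 15 to the genes called lower. Of these, DDX31, NOC3L and SDAD1 held the motif, and the others with a window did not. In NB4 the shares were alike, at 10 of 27 (37%) called lower and 7 of 19 (36.8%) not called. Over all genes with a window the motif was in 17.2% of those called lower and 12.8% of those not called in MOLM-13, and in 17.1% and 12.7% in NB4. These are counts of letters, with no test, and no binding was measured.

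Levels are given as RPKM, read counts scaled to exon length and to library size, as the authors deposited them. Fold changes are differences of log2(RPKM + 0.1), FP54 minus DMSO, from limma fitted over every gene with a mean of at least 1 RPKM in the 6 libraries of a line. A gene was called at p below 0.01 with a log2 change of at least 0.5, and the Benjamini-Hochberg adjusted p over all tested genes is printed with it. The reads on genes, recovered from the RPKM values, numbered 5835173 to 19202930 per library in MOLM-13 and 10599156 to 22342375 in NB4. The 6 checked myeloid markers, CD33, MPO, SPI1, PTPRC, CEBPA and ANPEP, were present in every library of both lines. Of the markers chosen to separate the lines, HOXA9 was at 19.1 to 25.4 RPKM in MOLM-13 and at most 0.716 in NB4. MEIS1 was at 6.05 to 8.40 and at most 0.190, and FLT3 at 51.1 to 91.8 and 4.46 to 6.04. HGF went the other way, at most 0.124 in MOLM-13 and 2.36 to 3.93 in NB4 DMSO. In NB4 FP54 it was at 0.2275 to 0.2613 (log2 change -3.29, called lower), so there it hardly separated the lines. Some of the myeloid markers also changed with FP54. MPO, the granule enzyme of myeloid precursors, was called lower in both lines, from 12.8 to 18.1 RPKM in DMSO to 3.29 to 4.64 in FP54 in MOLM-13 (log2 change -2.06) and from 2036 to 2263 to 1082 to 1149 in NB4 (-0.96). PTPRC was called higher in both, at 0.55 in MOLM-13, and ANPEP was called higher in NB4 (2.02). The part of all these marker changes in the assembly factor values was not tested. Of 8 markers of other blood and tissue cells, 7 in MOLM-13 and 6 in NB4 stayed under 1 RPKM in every library, with HBB and PPBP at 0 throughout MOLM-13. Their summed level was 26.2 to 29.4 RPKM in DMSO and 41.99 to 44.2 in FP54 in MOLM-13, nearly all of it PECAM1, and 10.3 to 10.7 against 14.4 to 17.4 in NB4, mostly EPCAM and PECAM1, and its part in the results was not tested. FTO mRNA, whose protein is the target, was 1.01 ± 0.0767 RPKM in DMSO and 1.01 ± 0.118 in FP54 in MOLM-13 (SD, n = 3), and 2.73 ± 0.180 and 2.03 ± 0.0782 in NB4, a log2 change of -0.41 (limma, adjusted p = 0.0119).

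The mRNAs of large subunit assembly factors were lower under FP54 in both lines. In MOLM-13, 52 of the 55 passed the level filter (URB2, DDX51 and NOP2 did not), 50 of the 52 had a negative fold change, 18 were called lower and none was called higher. The same rule called 9.04% of all 9710 tested genes lower and 9.3% higher. In NB4 all 55 were tested, 53 had a negative fold change, 32 were called lower and again none higher, where the rule called 10.7% of 9853 genes lower and 18.6% higher. At an unadjusted p below 0.05 limma placed none higher in either line, and limma-voom on the recovered reads called none higher. The median log2 change over the assembly factors was -0.64 in MOLM-13 and -0.57 in NB4, beside 0.0033 and 0.07 over all tested genes. Quantile normalization moved the NB4 median of all genes by -0.10 and turned its split of 1050 lower and 1834 higher into 1365 and 1281, and it left 31 assembly factors called lower and none higher. At an adjusted p below 0.05, 18 were lower in MOLM-13 (9.32% of all genes) and 46 in NB4 (22% of all genes). The MOLM-13 count by adjusted p dropped to 1 when DMSO replicate 3 or FP54 replicate 1 was omitted and to 7 on omission of DMSO replicate 1, and rose to 33 on omission of DMSO replicate 2, while in NB4 it stayed between 41 and 50 when any library was left out. With all libraries, none was higher in either line, where 9.84% and 29.8% of all genes were. For the omissions, the share over all genes is not given here. The FP54 libraries lay below every DMSO library for 22 of the 52 in MOLM-13 (17% of all genes) and for 46 of the 55 in NB4 (26.2%), and above every DMSO library for none, which held for 20.2% and 34.3% of all genes.

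**Figure D1:**
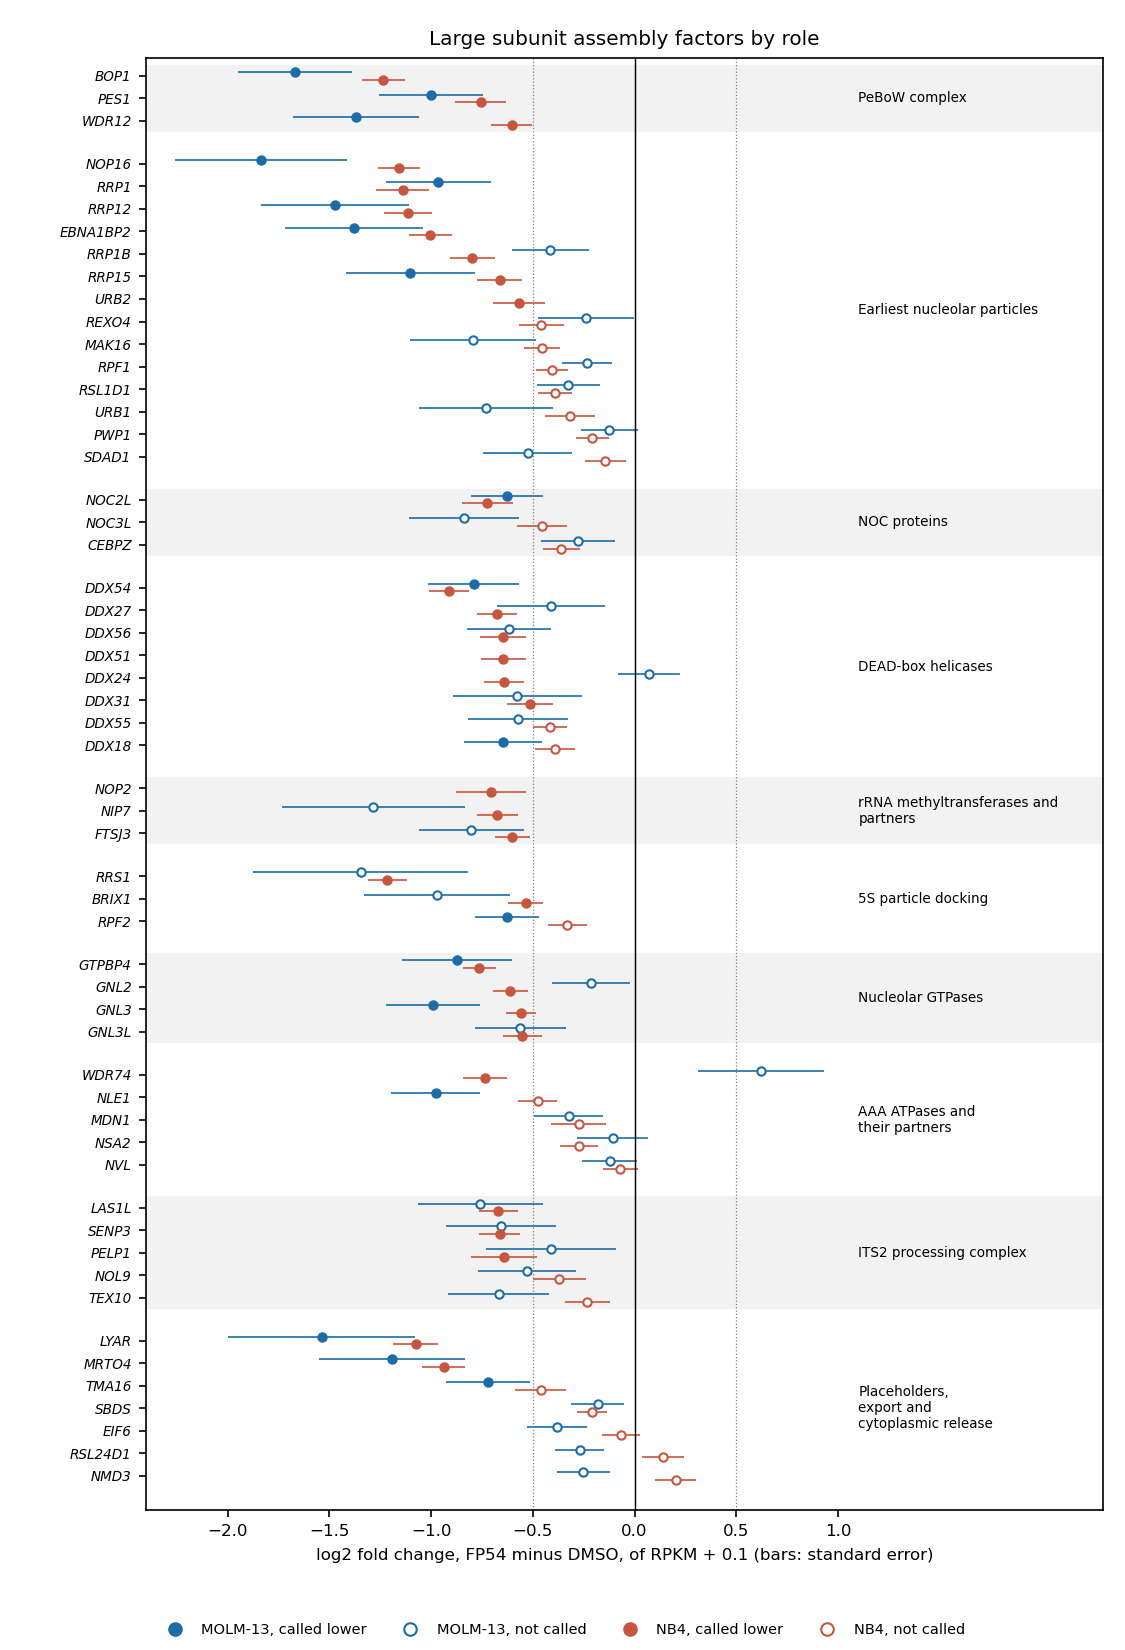
Log2 fold changes of RPKM + 0.1 (FP54 minus DMSO, horizontal axis) of the 55 assembly factors, grouped by their role in assembly, with 1 point per cell line and bars for the standard error. Filled points passed the call rule (dotted lines at a log2 change of 0.5 either way): 18 in MOLM-13 and 32 in NB4, all on the lower side, while NMD3, RSL24D1, EIF6 and SBDS at the bottom were called in neither line.

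The libraries of MOLM-13 spread more than those of NB4, and DMSO replicate 2 of MOLM-13 stood apart. On the first principal component over all tested genes it was at -10.3, against -30.4 and -33.8 for the other DMSO libraries and 16.1 to 39.7 for FP54. Whether this library is an unmixed control as labelled was not tested, and FTO mRNA, which did not pass the test between the MOLM-13 groups, does not check the label. Every MOLM-13 DMSO mean, fold change and call given here depends on it. It was the lowest of the 3 DMSO libraries for 47 of the 55 assembly factors. Over the 52 tested ones its median log2 deviation from the DMSO mean was -0.39, between the 0.16 and 0.27 of DMSO replicates 1 and 3 and the -0.89, -0.43 and -0.58 of the FP54 libraries. MYC was likewise lowest of the controls in DMSO replicate 2: its RPKM was 56.5, 13.8 and 40.2 in the 3 DMSO libraries of MOLM-13 and 5.91, 11.8 and 18.8 in FP54, so DMSO replicate 2 fell among the treated values (log2 change -1.52, adjusted p = 0.0567 by limma). In NB4 MYC was at 133, 142 and 125 RPKM in DMSO and 75.8, 67.9 and 65.0 in FP54, with no overlap (-0.94, adjusted p = 1.62e-05). The part of MYC in the assembly factor values was not tested. Without DMSO replicate 2, 33 assembly factors were called lower in MOLM-13, including all 18 called with it. Without DMSO replicate 1 the count was 10, without DMSO replicate 3 it was 8, and without FP54 replicate 1, the library with the lowest levels, it was 6, namely BOP1, WDR12, NOP16, RRP12, GNL3 and NLE1. Those 6 were called under every omission of a MOLM-13 library. The share of all genes called under each omission is not given here, so these counts do not set the assembly factors apart from other genes.

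**Figure D2:**
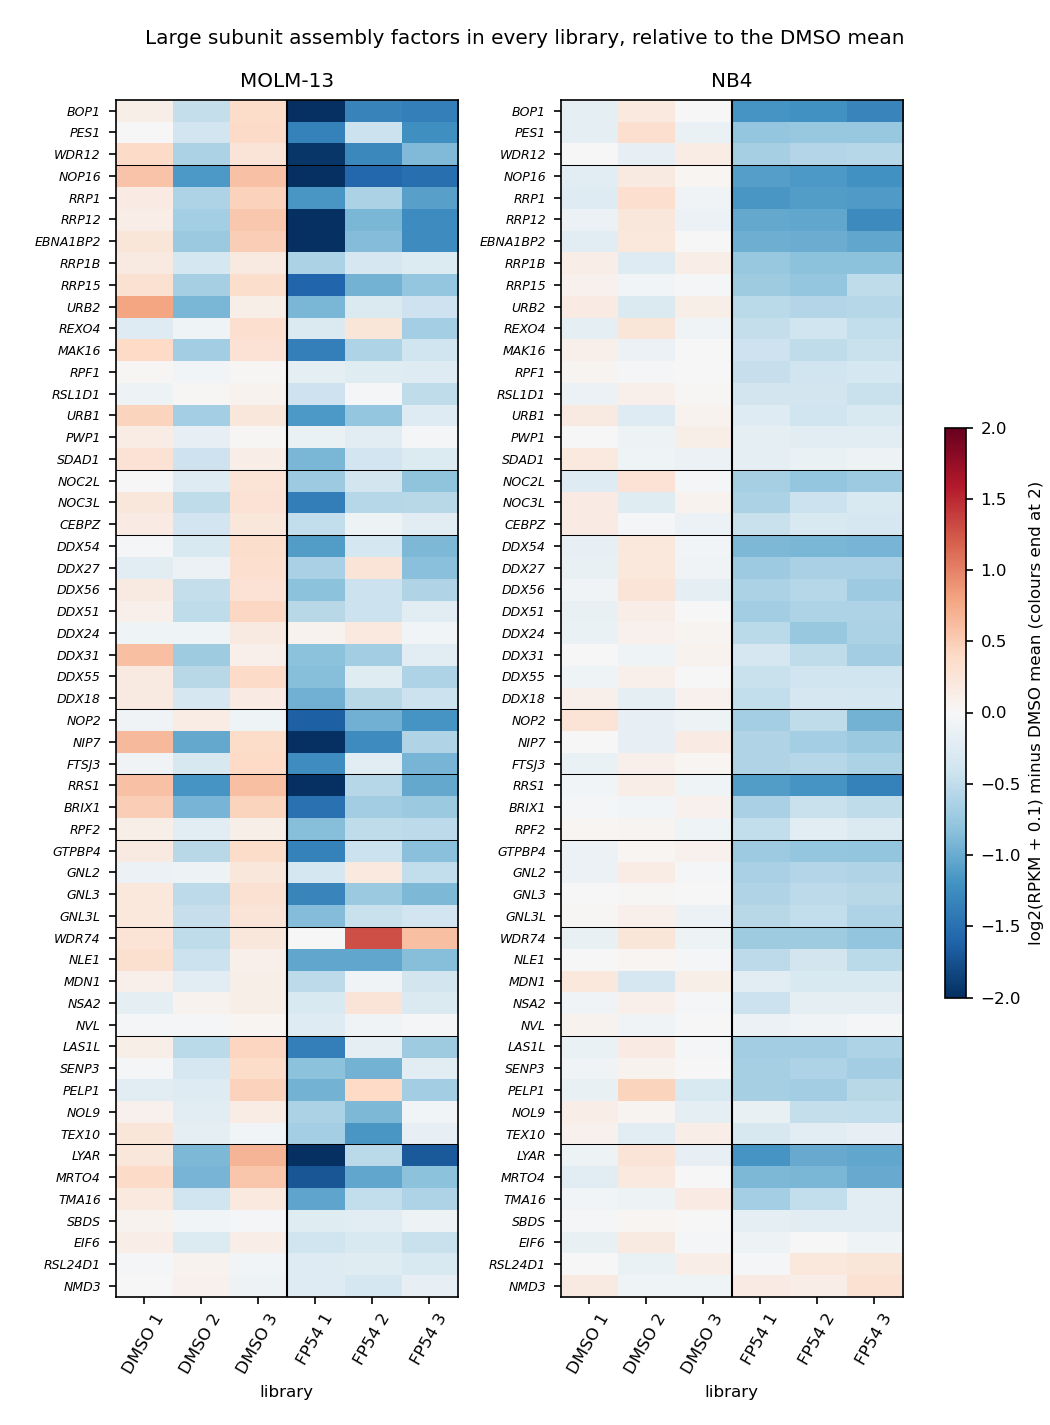
Level of each assembly factor in every library, as log2(RPKM + 0.1) minus the mean of the 3 DMSO libraries of the same line, with genes in rows by role and colors ending at 2 either way. NB4 libraries of a group look alike, whereas MOLM-13 DMSO 2 is blue for most genes and FP54 1 is the darkest column.

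The PeBoW complex, which binds the spacer between the large subunit RNAs and is needed for their maturation, fell as a whole: its 3 members BOP1, PES1 and WDR12 were called lower in both lines. BOP1, the scaffold of the complex, was at 21.8, 14.4 and 25.8 RPKM in the MOLM-13 DMSO libraries and at 4.02, 7.90 and 7.68 in FP54. The groups did not overlap, and the log2 change was -1.67 ± 0.28 (SE, limma adjusted p = 0.00537). In NB4 it went from 18.8, 24.4 and 21.3 to 9.41, 9.19 and 8.52 RPKM, a change of -1.23 ± 0.11 (adjusted p = 8.92e-06), the most negative of all assembly factors in that line. WDR12, its WD-repeat partner, stood at 11.4, 5.57 and 10.5 RPKM in MOLM-13 DMSO and 2.20, 3.53 and 4.68 in FP54 (-1.37 ± 0.31, adjusted p = 0.0159). In NB4 WDR12 was at 12.6, 11.2 and 13.98 against 7.92, 8.31 and 8.44 RPKM (-0.60 ± 0.10, adjusted p = 0.000671). PES1, the pescadillo homolog, had the highest level of the complex and fell to 50.8% of its DMSO mean in MOLM-13 and to 58.3% in NB4.

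The factors of the earliest nucleolar particles ranged widely, from -1.83 to -0.12 in MOLM-13 and from -1.16 to -0.14 in NB4. Of these 14 proteins, 5 of the 13 tested were called lower in MOLM-13 and 7 of 14 in NB4, with medians of -0.73 and -0.51. NOP16, a small nucleolar protein of early particles, had the most negative fold change in MOLM-13. Its RPKM was 23.7, 7.17 and 23.9 in DMSO and 2.90, 5.32 and 5.54 in FP54 (-1.83 ± 0.42, adjusted p = 0.0170). DMSO replicate 2 was close to the treated libraries and still above them, and without it the change was -2.41 ± 0.26. In NB4 NOP16 fell from 52.7, 68.9 and 62.8 to 28.5, 27.4 and 26.4 RPKM (-1.16 ± 0.10, adjusted p = 1.04e-05).

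RRP12 and EBNA1BP2 followed NOP16 closely. RRP12, a HEAT-repeat protein that also serves the small subunit, was at 6.17, 3.47 and 8.16 RPKM in MOLM-13 DMSO and 1.11, 2.92 and 2.28 in FP54 (-1.47 ± 0.36, adjusted p = 0.0218). Its NB4 values were 16.8, 21.5 and 16.8 against 8.90, 8.80 and 7.499 RPKM (-1.12 ± 0.12, adjusted p = 3.36e-05). EBNA1BP2, the counterpart of yeast Ebp2, had 40.2, 20.4 and 48.2 RPKM in MOLM-13 DMSO and 8.34, 18.7 and 14.2 in FP54, so the lowest control exceeded the highest treated library by little (-1.38 ± 0.34, adjusted p = 0.0212). In NB4 it was at 71.7, 96.8 and 84.6 against 42.4, 42.2 and 40.5 RPKM (-1.004 ± 0.11, adjusted p = 3.36e-05).

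RRP1 and its paralog RRP1B, both relatives of yeast Rrp1, differed in MOLM-13 by the call and not in NB4. RRP1 fell from 15.2, 8.85 and 18.8 to 6.01, 8.76 and 6.36 RPKM in MOLM-13 (-0.96 ± 0.26, adjusted p = 0.0297) and from 34.1, 51.2 and 38.6 to 18.1, 18.7 and 18.5 in NB4 (-1.14 ± 0.13, adjusted p = 5.51e-05). RRP1B had a log2 change of -0.41 in MOLM-13 (adjusted p = 0.148, groups overlapping) and was called in NB4 at -0.80 (adjusted p = 0.000194). The difference between the paralogs was not tested. RRP15 was the other member called in both lines, at -1.10 in MOLM-13 and -0.66 in NB4, and URB2, below the filter in MOLM-13, was called in NB4 at -0.57.

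The remaining early factors changed less. URB1, the large scaffold protein of the earliest particle, was at 2.19, 0.954 and 1.87 RPKM in MOLM-13 DMSO and 0.655, 0.884 and 1.31 in FP54 (-0.73 ± 0.33, adjusted p = 0.143), and at 7.96, 5.85 and 7.37 against 5.85, 5.30 and 5.65 in NB4 (-0.32 ± 0.12, adjusted p = 0.0509). Neither change passed. MAK16 and the Brix-domain protein RPF1 were not called in either line, with -0.79 and -0.23 in MOLM-13 and -0.45 and -0.40 in NB4, although both NB4 values passed the adjusted p. RSL1D1, REXO4, SDAD1 and PWP1 lay between -0.53 and -0.12 in MOLM-13, where none passed, and between -0.46 and -0.14 in NB4, where RSL1D1 and REXO4 passed the adjusted p (0.00285 and 0.00559). RSL1D1 was the most abundant of the 55 in MOLM-13 DMSO, at 114 ± 7.06 RPKM.

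The 3 NOC proteins, which travel with early particles from nucleolus to nucleoplasm, were represented by a single call in each line, NOC2L. Its log2 change was -0.63 in MOLM-13 (adjusted p = 0.0345) and -0.72 in NB4 (adjusted p = 0.0008), and the groups did not overlap in either. CEBPZ, the human counterpart of Noc1, was at 45.7, 31.3 and 47.6 RPKM in MOLM-13 DMSO and 28.9, 37.9 and 34.9 in FP54, with DMSO replicate 2 inside the treated range (-0.28 ± 0.18, adjusted p = 0.308). In NB4 it went from 75.9, 66.2 and 62.6 to 50.1, 55.2 and 53.8 RPKM (-0.36 ± 0.09, adjusted p = 0.00775), a decrease smaller than the size the call asks for. NOC3L was at -0.84 in MOLM-13 (adjusted p = 0.0542) and -0.46 in NB4 (adjusted p = 0.00998).

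The DEAD-box helicases, RNA-dependent ATPases that remodel the precursor RNA, had medians of -0.64 in NB4 and -0.58 in MOLM-13, with 6 of 8 called in NB4 and 2 of 7 in MOLM-13, or 5 of 7 there without DMSO replicate 2. DDX54, the relative of yeast Dbp10, was called in both, with a mean of 25.0 ± 5.78 RPKM in DMSO and 14.5 ± 4.18 in FP54 in MOLM-13 (-0.79, adjusted p = 0.0342) and 83.5 ± 11.5 against 44.1 ± 0.689 in NB4 (-0.91, adjusted p = 4.22e-05). DDX18, the relative of Has1, was at 23.5, 16.4 and 23.4 RPKM in MOLM-13 DMSO and 10.6, 14.2 and 15.5 in FP54 (-0.65 ± 0.19, adjusted p = 0.0418), and at 34.4, 28.2 and 33.8 against 22.7, 25.3 and 25.1 in NB4 (-0.39 ± 0.10, adjusted p = 0.00708). The NB4 libraries did not overlap either, but the change missed the size cutoff. DDX27, DDX31, DDX51 and DDX56 were called in NB4 at -0.68 to -0.52 and, where tested, not in MOLM-13, and DDX55 passed only the adjusted p in NB4 (0.00209).

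DDX24, the relative of Mak5, was the exception among the helicases. In MOLM-13 it was at 6.24, 6.22 and 7.48 RPKM in DMSO and 6.97, 7.64 and 6.35 in FP54, groups that overlapped (0.07 ± 0.15, adjusted p = 0.77), while in NB4 it was at 13.6, 15.9 and 15.5 against 10.3, 8.82 and 9.58 (-0.64 ± 0.10, adjusted p = 0.000411). The difference between these effects is given with the comparison of the lines.

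Among the enzymes that methylate the large subunit RNA and their partner NIP7, all 3 were called lower in NB4. In MOLM-13, NOP2, the RNA methyltransferase also called NSUN1, was below the level filter, at 0.426, 0.510 and 0.418 RPKM in DMSO and 0.0778, 0.183 and 0.142 in FP54, which rested on 5 to 39 reads per library. In NB4 it was at 1.67, 1.21 and 1.28 against 0.826, 0.935 and 0.669 RPKM and was called lower (-0.71 ± 0.17, adjusted p = 0.00586). Of its exon bases, 54.4% are shared with another gene on the same strand, so its level depends on how shared reads were counted. NIP7, which binds next to FTSJ3, was at 3.39, 0.996 and 2.75 RPKM in MOLM-13 DMSO and 0.450, 0.832 and 1.37 in FP54 (-1.29 ± 0.45, adjusted p = 0.0706), and DMSO replicate 2 lay inside the treated range. In NB4 it went from 17.2, 15.2 and 19.2 to 11.3, 10.6 and 10.2 RPKM (-0.67 ± 0.10, adjusted p = 0.000353). FTSJ3, a ribose methyltransferase, was called in NB4 at -0.60 and had -0.80 in MOLM-13 (adjusted p = 0.0536).

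RPF2 and RRS1 dock the 5S RNA particle onto the assembling subunit, and BRIX1 is a Brix-domain relative of RPF2. RRS1 had the smallest p of all assembly factors in NB4, going from 40.5, 46.0 and 39.8 to 19.3, 18.6 and 16.4 RPKM (-1.21 ± 0.10, adjusted p = 4.62e-06). In MOLM-13 its libraries overlapped, at 14.3, 4.14 and 14.5 RPKM in DMSO and 1.67, 6.38 and 4.64 in FP54 (-1.35 ± 0.53, adjusted p = 0.0991), and without DMSO replicate 2 it was called at -1.94. RPF2, by contrast, was called in MOLM-13, from 36.1, 28.2 and 36.0 to 18.5, 23.4 and 23.0 RPKM (-0.63 ± 0.16, adjusted p = 0.0229), and stayed under the size cutoff in NB4, from 30.4, 30.9 and 27.9 to 21.1, 25.7 and 24.3 (-0.33 ± 0.10, adjusted p = 0.0147). BRIX1 was called in NB4 at -0.54 and had -0.97 in MOLM-13 with overlapping libraries.

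All 4 nucleolar GTPases were called lower in NB4, and GNL3 and GTPBP4 were called in MOLM-13. GNL3, also known as nucleostemin, went from 73.3 ± 20.9 to 36.2 ± 7.16 RPKM in MOLM-13 (-0.99, adjusted p = 0.0172) and from 100.5 ± 1.23 to 68.2 ± 2.11 in NB4 (-0.56, adjusted p = 0.000142). GTPBP4, the relative of Nog1, was at -0.87 and -0.76, though in MOLM-13 its DMSO replicate 2 lay below the highest treated library. GNL2, the relative of Nog2, stayed at 38.8, 39.5 and 49.3 RPKM in MOLM-13 DMSO and 33.2, 48.7 and 30.1 in FP54 (-0.21 ± 0.19, adjusted p = 0.455), and fell in NB4 from 38.0, 45.6 and 40.6 to 26.4, 27.5 and 27.2 (-0.61 ± 0.09, adjusted p = 0.00026). GNL3L had nearly the same value in both lines, -0.56 and -0.55, and passed in NB4 alone.

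**Figure D3:**
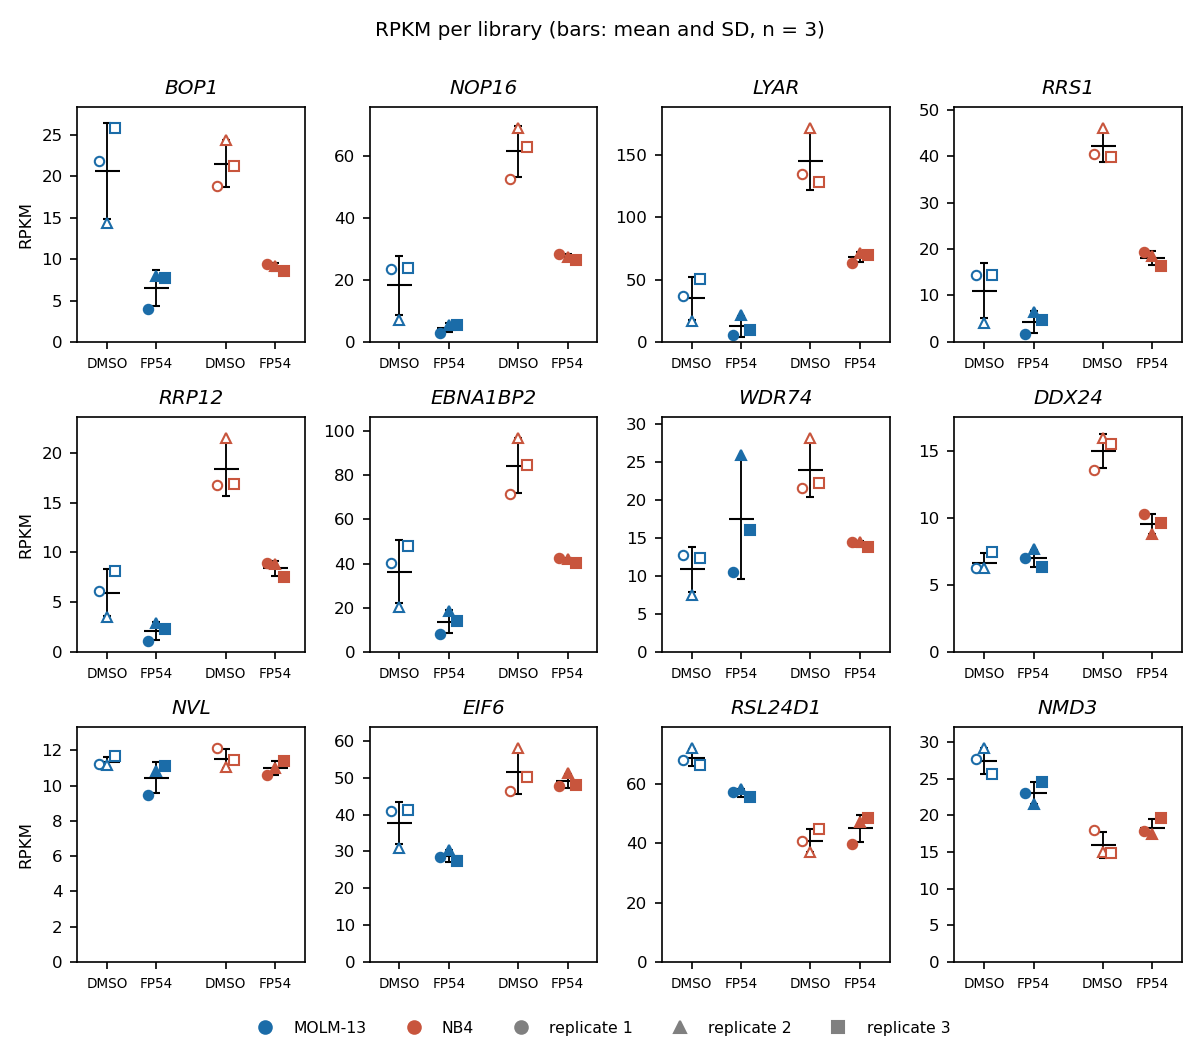
RPKM (vertical axes, from 0) of 12 assembly factors in each of the 12 libraries, with open symbols for DMSO, filled symbols for FP54, a symbol shape per replicate number, and black bars for mean and SD (n = 3). BOP1, NOP16, RRP12 and EBNA1BP2 have no overlap between DMSO and FP54 in either line, WDR74 is highest in FP54 replicate 2 of MOLM-13, and NVL stays between 9.45 and 12.1 in all 12.

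The AAA ATPases and their partners, which strip factors from the particle, had medians of -0.12 in MOLM-13, the nearest to 0 of the 10 role groups, and -0.28 in NB4, with 1 of 5 called in each. MDN1, the giant AAA protein also called midasin, was at 12.1, 9.51 and 12.2 RPKM in MOLM-13 DMSO and 7.75, 10.6 and 8.66 in FP54 (-0.32 ± 0.17, adjusted p = 0.202), and at 15.2, 10.3 and 14.2 against 11.3, 10.6 and 10.5 in NB4 (-0.27 ± 0.13, adjusted p = 0.109). NVL, the second AAA ATPase, was at 11.2, 11.2 and 11.7 RPKM against 9.45, 10.8 and 11.1 in MOLM-13 (-0.12 ± 0.14, adjusted p = 0.558). In NB4 its values of 12.1, 11.03 and 11.5 in DMSO overlapped the 10.6, 11.004 and 11.4 of FP54 (-0.07 ± 0.09, adjusted p = 0.524). The 95% interval of that change ran from -0.26 to 0.12, so a decrease as large as the call asks for lay outside it.

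NLE1, which anchors MDN1 on the particle, was the member called in MOLM-13 (-0.98, adjusted p = 0.0152), and in NB4 it passed the adjusted p at -0.48. NSA2 had 54.9, 65.3 and 68.0 RPKM in MOLM-13 DMSO and 50.7, 74.8 and 51.3 in FP54 (-0.11 ± 0.18, adjusted p = 0.696), and 40.0, 45.2 and 41.7 against 31.4, 36.9 and 36.9 in NB4 (-0.27 ± 0.09, adjusted p = 0.0306). Over its exons, 54.4% of the bases lie opposite exons of genes on the other strand, and whether the counting used strand is not given in the sources used here. WDR74, which NVL removes from the particle, was the member called in NB4, from 21.5, 28.1 and 22.2 to 14.5, 14.4 and 13.8 RPKM (-0.74 ± 0.11, adjusted p = 0.000289). In MOLM-13 it had the highest fold change of the 52, from 12.8, 7.44 and 12.4 in DMSO to 10.5, 25.9 and 16.0 in FP54 (0.62 ± 0.31, adjusted p = 0.179), with overlapping groups and the highest value in FP54 replicate 2, the library with the fewest reads. The exons of WDR74 contain 191 bases annotated as the U2 snRNA gene RNU2-2P on the same strand, and reads from the snRNA cannot be told apart from WDR74 reads in these tables. Exons of NSA2 (105 bases), GNL3 (84, 38 and 37), BOP1 (65) and EBNA1BP2 (61) also contain small RNA genes on the same strand, with the same limit.

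The ITS2 processing complex, in which LAS1L cuts the internal spacer and NOL9 is the kinase of the cut end, was called in NB4 for LAS1L, PELP1 and SENP3 and for none of its 5 genes in MOLM-13, where LAS1L, SENP3 and TEX10 had an unadjusted p below 0.05 and the median was -0.65. LAS1L was at 9.91, 6.29 and 12.4 RPKM in MOLM-13 DMSO and 3.50, 8.02 and 5.56 in FP54, so the groups overlapped (-0.76 ± 0.31, adjusted p = 0.108). In NB4 it fell from 18.5, 22.8 and 20.1 to 12.6, 12.5 and 13.3 RPKM (-0.67 ± 0.10, adjusted p = 0.000248). The SUMO protease SENP3 was at -0.65 and -0.66, with 41.7% of its exon bases shared with the readthrough gene SENP3-EIF4A1. PELP1, NOL9 and TEX10 were at -0.41, -0.53 and -0.67 in MOLM-13 and at -0.64, -0.37 and -0.23 in NB4.

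Placeholder, export and release factors split by gene. MRTO4, which holds the place of the stalk protein until late assembly, was at 29.4, 11.8 and 33.2 RPKM in MOLM-13 DMSO and 6.81, 10.9 and 12.8 in FP54 (-1.19 ± 0.36, adjusted p = 0.0441), and at 51.3, 68.6 and 60.3 against 32.1, 31.7 and 29.6 in NB4 (-0.94 ± 0.11, adjusted p = 5.2e-05). LYAR, a nucleolar zinc finger protein, varied widely between MOLM-13 libraries, with 37.0, 17.02 and 50.7 RPKM in DMSO and 5.95, 21.7 and 9.89 in FP54 (-1.54 ± 0.46, adjusted p = 0.0435). Both genes were called in both lines although their MOLM-13 groups overlapped through DMSO replicate 2. LYAR was also the most abundant assembly factor of NB4, at 135, 172 and 129 RPKM in DMSO and 63.7, 71.0 and 69.8 in FP54 (-1.08 ± 0.11, adjusted p = 2.9e-05). TMA16 was called in MOLM-13 at -0.72 and passed the adjusted p in NB4 at -0.46.

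With all libraries, NMD3, RSL24D1, EIF6 and SBDS, the rest of this role group, were called in neither line. NMD3, the adaptor for export of the large subunit, was at 27.6, 29.1 and 25.6 RPKM in MOLM-13 DMSO and 23.0, 21.5 and 24.6 in FP54 (-0.25 ± 0.13, adjusted p = 0.193), and at 18.0, 14.9 and 14.9 against 17.9, 17.4 and 19.6 in NB4 (0.20 ± 0.10, adjusted p = 0.113). RSL24D1, which occupies the site of a ribosomal protein, was at 68.1, 72.1 and 66.6 RPKM against 57.3, 58.4 and 55.6 in MOLM-13 (-0.27 ± 0.12, adjusted p = 0.142) and 40.9, 37.0 and 44.8 against 39.9, 47.1 and 48.5 in NB4 (0.14 ± 0.10, adjusted p = 0.274). These were the 2 positive fold changes in NB4, and with quantile normalization both had an unadjusted p below 0.05 and RSL24D1 an adjusted p of 0.0377 (limma, log2 change 0.27). EIF6, which keeps the subunits apart, was at 40.9, 31.0 and 41.2 RPKM in MOLM-13 DMSO and 28.4, 30.4 and 27.4 in FP54 (-0.38 ± 0.15, adjusted p = 0.098, and called lower at -0.52 without DMSO replicate 2, adjusted p = 0.027), and at 46.5, 58.0 and 50.3 against 47.7, 51.3 and 48.1 in NB4 (-0.07 ± 0.09, adjusted p = 0.581), a value that turned to 0.11 under quantile normalization. SBDS, which removes EIF6 together with a GTPase, was at -0.18 and -0.21, and the NB4 value passed the adjusted p (0.037).

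The lines shared most of what was called in MOLM-13. By the call rule 14 assembly factors were lower in both, which is 14 of the 18 in MOLM-13 and 14 of the 32 in NB4. They were BOP1, PES1, WDR12, NOP16, RRP1, RRP12, RRP15, EBNA1BP2, NOC2L, DDX54, GNL3, GTPBP4, MRTO4 and LYAR. The same overlap over all genes was not counted, so these counts do not set the assembly factors apart from other genes. The 4 called in MOLM-13 alone, DDX18, NLE1, RPF2 and TMA16, had smaller changes in NB4 and still passed the adjusted p there. Across the 52 genes tested in both lines, fold changes had a Pearson r of 0.65 and a Spearman rho of 0.63, against 0.44 and 0.49 over all 8849 genes, as a description across genes that share the libraries of each line.

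**Figure D4:**
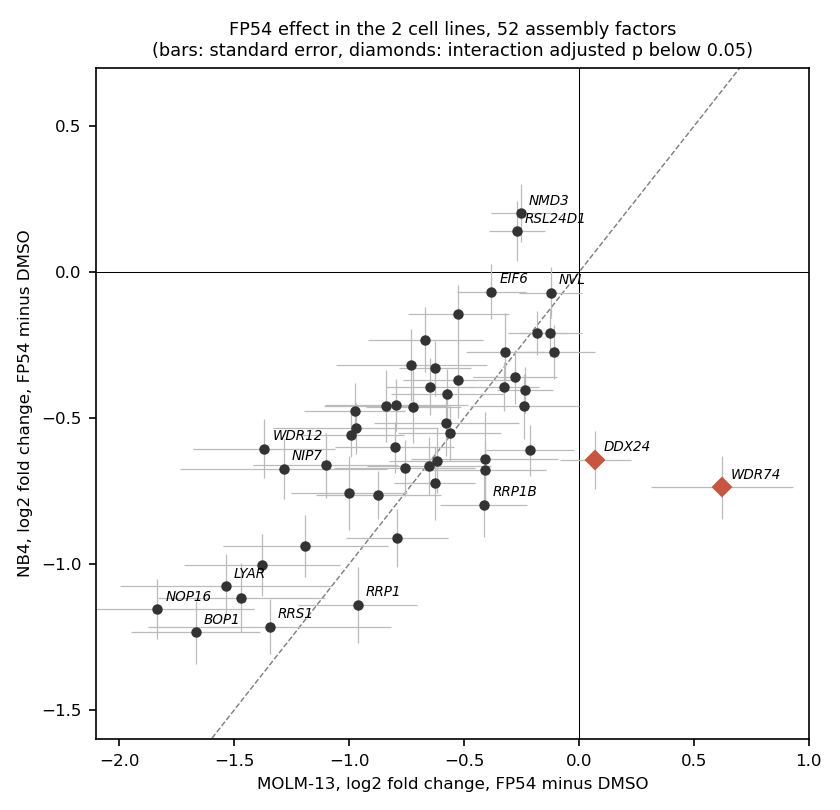
Log2 fold change (FP54 minus DMSO) of 52 assembly factors in MOLM-13 (horizontal) and NB4 (vertical), with standard error bars, the dashed line of equal change and diamonds for genes whose effect differed between the lines at an adjusted p below 0.05. WDR74 and DDX24 are the diamonds, right of the line, and NMD3 and RSL24D1 lie above 0 in NB4.

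A test of the difference between the lines itself, an interaction term over the 12 libraries, called 2 of the 52 assembly factors, against 14.2% of all 8849 genes in either direction and 3.75% with the NB4 effect more negative. The 2 were WDR74 (-1.36 ± 0.37, limma adjusted p = 0.0246) and DDX24 (-0.71 ± 0.18, adjusted p = 0.0138), both lower under FP54 in NB4 and not in MOLM-13. Without the level filter WDR74 did not pass (adjusted p = 0.0613). For the others a difference did not pass the adjusted p. NMD3 and RSL24D1 came nearest, with NB4 minus MOLM-13 differences of 0.46 (95% interval 0.12 to 0.80, adjusted p = 0.0701) and 0.41 (0.08 to 0.74, adjusted p = 0.0929), whose unadjusted intervals do not include 0. Intervals were wide for genes that spread in MOLM-13, such as NOP16 at 0.68 (-0.40 to 1.76) and BOP1 at 0.43 (-0.29 to 1.15), and narrower for others, such as SBDS at -0.03 (-0.31 to 0.26). Leaving out FP54 replicate 2 of NB4 removed both calls, leaving out DMSO replicate 2, FP54 replicate 1 or FP54 replicate 3 of NB4 left 1, and leaving out DMSO replicate 2 of MOLM-13 raised the count to 7. The share of all genes called under these omissions is not given here.

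The DMSO levels themselves were higher in NB4. Of the 52 genes tested in both lines, 37 had every NB4 DMSO library above every MOLM-13 one, where 41.8% of all genes did, and 4 had every NB4 library below, where 34.7% of all genes did. The tables of the lines were normalized separately. The median ratio of NB4 to MOLM-13 was 2.09 for the assembly factors and 1.08 for all genes. Ratios ran from 0.58 for NMD3 and 0.594 for RSL24D1, through 1.04 for BOP1 and 1.02 for NVL, to 4.15 for LYAR and 7.23 for NIP7, and MYC was at 133 ± 8.85 RPKM in NB4 DMSO and 36.8 ± 21.5 in MOLM-13 DMSO.

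Neighboring gene lists of ribosome production placed the assembly factors in context. Of 25 other factors of the large subunit, 8 of the 22 tested were called lower in MOLM-13, with the RNA helicase DDX21 lowest at -1.88, and 7 of 23 in NB4, with CCDC86 lowest at -1.31, while 2 passed the adjusted p on the higher side in NB4. Their medians were -0.41 and -0.46. Factors of the small subunit processome, the particle that builds the other subunit, were also lower: 13 of 45 were called in MOLM-13 (median -0.58, DDX10 lowest at -1.51) and 31 of 46 in NB4 (median -0.60, LTV1 lowest at -1.25). The 47 large subunit ribosomal proteins, the building blocks that remain in the ribosome, had medians of 0.04 in MOLM-13 and 0.24 in NB4. Among these RPL36A was called lower in MOLM-13 at -1.15, and 3 were called higher in NB4, led by RPL12 at 0.59. At an adjusted p below 0.05, 20 of the 47 were higher in NB4, where 29.8% of all tested genes were. Over all tested genes the call rule gave 9.04% lower in MOLM-13, and 10.7% lower and 18.6% higher in NB4. The count of ribosomal proteins called higher in NB4 was 10 with quantile normalization and 1 with median-ratio scaling, and that of the other large subunit factors called lower was 9 and 13. Of the genes with a promoter window, the E-box was in 28.6% of the other large subunit factors, in 43.2% of the small subunit factors and in 5.26% of the ribosomal proteins.

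**Figure D5:**
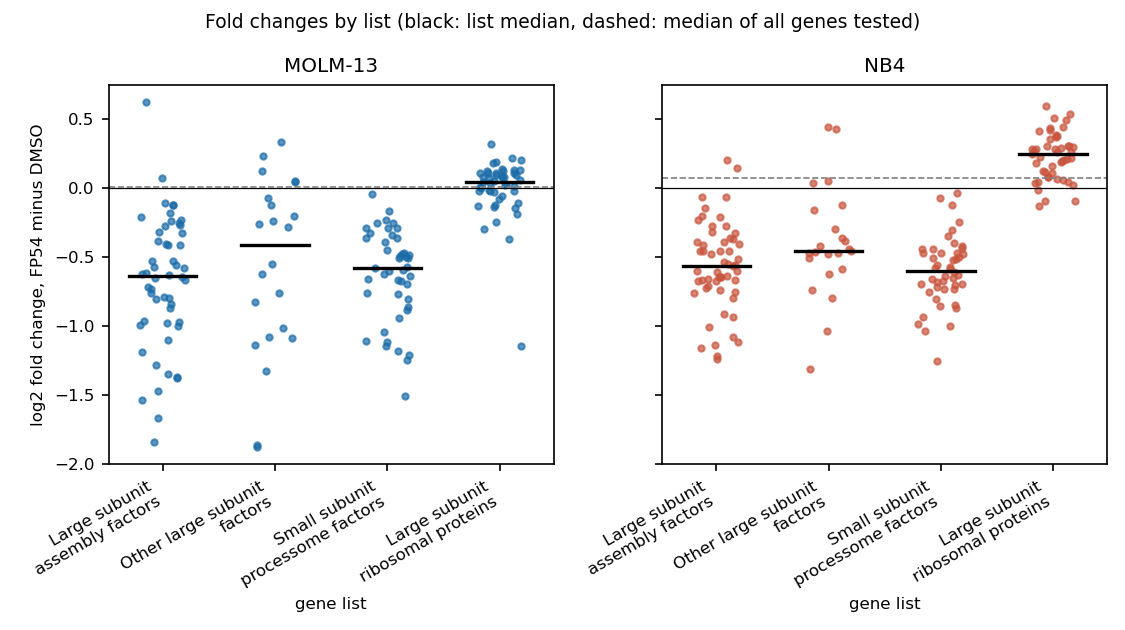
Log2 fold changes (FP54 minus DMSO, vertical axis) of the tested genes in 4 lists in MOLM-13 (left) and NB4 (right), 1 point per gene, with a black bar at the list median and a dashed line at the median of all tested genes. The assembly factors of both subunits lie mostly below 0, with medians of -0.64 and -0.58 in MOLM-13, and the ribosomal proteins lie around 0.04 in MOLM-13 and 0.24 in NB4.

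Mean levels of 400 olfactory receptor genes, which these cells are not expected to transcribe, were 0.00175 to 0.00387 RPKM in NB4 DMSO and 0.0509 to 0.0544 in NB4 FP54, and 0.00381 to 0.00833 over the MOLM-13 libraries. Subtracting each library's olfactory receptor level from every gene left 18 assembly factors called lower in MOLM-13 and 32 in NB4. The subtracted levels were small beside those of the tested assembly factors, so this step could change little. The part of the higher olfactory receptor level of NB4 FP54 in the assembly factor values was otherwise not tested.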

How the data were processed

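Poly(A) RNA of 12 libraries was analysed. Per the labels and the methods of the study, reads were trimmed with Cutadapt 4.8, aligned with STAR 2.7.11b to hg38 and counted with featureCounts 2.0.3 on protein-coding genes. The authors deposited RPKM, 1 table per cell line, and those values were used as they stood. Whether counting used strand is not given in the sources used here.

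The assembly factors, their 10 role groups, the other gene lists and the tests were chosen with earlier results of these data known. Each line was fitted alone with limma 3.58.1 in R 4.3.3 (eBayes with trend) on log2(RPKM + 0.1), over genes with a mean of at least 1 RPKM, and 1 fit over both lines gave the interaction. Calls needed p below 0.01 and a log2 change of 0.5, as in the study's methods, and Benjamini-Hochberg adjusted values cover all tested genes. Values in every library were printed for 25 assembly factors: in each line the 8 lowest and 4 highest fold changes, those with a line difference, and the first named of each role. Exact permutation of 3 against 3 libraries cannot give p below 0.1.

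RPKM times exon length (GENCODE v44) gave whole reads within 0.05 for 98.7 to 99.3% of values of up to 20 reads, and limma-voom on those reads was an alternative, as were other pseudocounts, filters, scalings, cutoffs, a replicate block and the omission of each library. On simulated data, changes of 1 on the log2 scale were recovered for 87.5% of genes in MOLM-13 and 98% in NB4. Changes of 0.5, the size cutoff of the call, were recovered for 35.5% in MOLM-13 and 44% in NB4. The simulated noise was drawn separately for each gene. A shift shared by many genes of a library, as in MOLM-13 DMSO replicate 2, was therefore not simulated. Exons of 32 assembly factors overlap other genes. A further marker on the list of other cell types is not reported here.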

Additional observations from a re-analysis of the deposited data

Results flagged for a closer look

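The effect of FP54 on WDR74 differed between the cell lines by -1.36 on the log2 scale (NB4 minus MOLM-13, limma interaction, adjusted p = 0.0246). FP54 libraries were below DMSO in 3 of 3 in NB4, and in MOLM-13 FP54 replicates 2 and 3 were above every DMSO library. Over 21 alternatives its adjusted p ranged from 0.00344 to 0.0706, and it did not pass without the level filter (0.0613). DDX24 differed by -0.71 (adjusted p = 0.0138), with 3 of 3 FP54 libraries lower in NB4 and overlapping groups in MOLM-13, and its adjusted p ranged from 0.00717 to 0.0571. Among 52 genes tested for such a difference these 2 passed, a smaller share than the 14.2% of all genes in either direction. Both had the more negative effect in NB4, a direction in which 3.75% of all genes passed, a share much like that of the 52.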

How the results depend on the processing

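In MOLM-13, where 18 assembly factors were called lower, 4 were called without the level filter, and 11 passed a rule of p below 0.05 with a log2 change of 1. Leaving out 1 library at a time gave 6 to 33 in MOLM-13, and the count called higher ranged from 0 to 1, the call being WDR74 at 0.94 without FP54 replicate 1. The MOLM-13 median ran from -0.51 to -0.84 over these omissions. In NB4 the 32 called lower became 7 under p below 0.05 with a log2 change of 1 and 30 to 34 over the omissions, and the median of -0.57 became -0.63 with median-ratio scaling. The 2 differences between lines became 4 with quantile normalization, 0 with a replicate block (adjusted p of 0.0706 for WDR74 and 0.0571 for DDX24) and 0 to 7 over the omissions. Over all 8849 genes, quantile normalization raised the count with a more negative NB4 effect from 332 to 811. In the other direction the count went from 926 to 857. Shares over all genes are not given here for the replicate block or for any of the omissions. With the replicate block 21 were called lower in MOLM-13 and 32 in NB4, and limma-voom on recovered reads gave 21 and 32. Same-numbered libraries correlated at -0.26 to -0.06 in MOLM-13 and -0.14 to 0.12 in NB4 in their deviations from group means. EIF6 in NB4 reversed, from -0.07 to 0.11 with quantile normalization and to 0.021 without DMSO replicate 2. Among values of named genes, 771 kept their direction and side of the threshold, 40 lost the call in the same direction, 9 gained it and 2 reversed. The causes were not tested. NOP2 in MOLM-13 rested on 5 to 39 reads per library. The olfactory receptor subtraction was chosen after seeing the data.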
